A study of Mus musculus with 48 samples.

Results

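TRBV1 is a variable segment of the T cell receptor (TCR) β chain, known to flow cytometrists as Vβ2. The members described here were all clones assigned to TRBV1 by the authors' alignment, which were 59726 of the 959731 clone entries in 48 libraries, or 6.22%. TRBV1 was chosen from its usage in these same samples, as the V segment with the highest mean share of reads in the CD4+ tumors. Its shares are therefore a description without a test. Tests were kept to CDR3 length, J partner, and the clonality and sharing between sites of its CD8+ clones.

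The mice were female, 8 weeks of age, of the strain C57BL/6 in the labels and C57BL/6J in the study's methods. Lewis lung carcinoma (LLC), a murine lung tumor line, was inoculated subcutaneously on both sides of the back, and T cells were sorted on day 13. Every one of the 4 mice, numbered 5 to 8, bore tumors, and no tumor-free mouse was among the samples. T cells of each tumor were split into CD4+ and CD8+ cells, and from the draining lymph node (dLN) only the CD44hi cells of either subset were taken. This gave 4 groups, each with both sides of the 4 mice, or 8 repertoires per group. A tumor was processed as 2 fragments, which were summed here. Since dLN cells were gated on CD44, a marker of antigen-experienced cells, and tumor cells were not, tissue and gate cannot be told apart in a comparison of tumor and dLN. The libraries hold TCR β transcripts alone, so the subset labels could not be checked against markers such as Cd4 or Cd8a.

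A TCR β chain is assembled in the thymus by joining 1 V, 1 D and 1 J segment, with bases trimmed from the segment ends and others added between them. The joined region encodes CDR3, the loop that contacts the antigenic peptide. Identical CDR3 nucleotide sequences in a mouse mark the descendants of 1 cell, or an identical rearrangement made more than once. The V segment itself encodes the other loops, which lie closer to the MHC molecule, and V usage is known to differ between CD4+ and CD8+ T cells. Antibodies against V regions such as Vβ2 have long been used to follow repertoires in mice.

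In the GRCm38 annotation, Trbv1 lies on the plus strand of chromosome 6 from 40891229 to 40891885. Its exons span 40891229 to 40891350 and 40891591 to 40891885, separated by an intron of 240 bp. The gene is 641 kb upstream of the first D segment, Trbd1, at 41533201 to 41533212. The second exon ends with the 17 bases that TRBV1 contributes to CDR3, shown here because all junctions below start from them. They encode a second cysteine, at residue 3 of CDR3, besides the conserved cysteine with which CDR3 opens.

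TRBV1 germline end: tgcacctgcagtgcaga

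Of the TRBV1 clones in the CD4+ tumors, 98.9% ± 0.0736 had a cysteine at residue 3, against 0.0506% ± 0.00683 of clones with other V segments (mean ± SD, n = 4 mice, left and right averaged). The full germline end was kept in 31.2% ± 3.51 of the TRBV1 clones in CD4+ tumors, 31.6% ± 1.12 in CD8+ tumors and 31.3% ± 0.801 in CD8+ dLNs. In the CD4+ dLNs it was kept in 22.5% ± 1.46. The CD4+ dLNs ranged from 20.99% to 25.17% and the CD4+ tumors from 25.18% to 35.4%, so that these groups met without overlap.

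The following junctions are those of the most frequent TRBV1 clone in the CD4+ tumors of each mouse, shown as the largest single clones behind the TRBV1 share. Capitals mark bases that match neither the germline end of TRBV1 nor that of the J segment.
CD4+ mouse 5, TRBJ2-4: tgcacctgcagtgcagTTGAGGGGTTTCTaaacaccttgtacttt
CD4+ mouse 6, TRBJ2-7: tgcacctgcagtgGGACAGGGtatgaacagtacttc
CD4+ mouse 7, TRBJ2-5: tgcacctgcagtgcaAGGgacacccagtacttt
CD4+ mouse 8, TRBJ1-2: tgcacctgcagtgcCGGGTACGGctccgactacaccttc
These 4 clones used 4 different J segments and had between 3 and 13 bases in capitals. Their CDR3s were 15, 12, 11 and 13 residues long in mice 5, 6, 7 and 8.

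After each library was drawn to 6 reads per sorted cell, it held 131070 to 2035380 reads and 302 to 2633 TRBV1 clones. The deposited libraries held between 326582 and 4840722 reads. One read corresponded to between 4.91e-05% and 0.000763% of a library. The libraries carry no molecular identifiers, so intervals cover counting error only, and more cells of a clone and more TCR mRNA per cell cannot be told apart in a share of reads. Replicates are separate mice.

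TRBV1 took its highest share of reads in CD4+ T cells and its lowest in the CD8+ tumors. In the CD4+ tumors, TRBV1 made up 16.2% ± 2.73 of reads (SD, n = 4 mice). The left and right tumors held 16.3% and 14.6% in mouse 5, 19.8% and 19.95% in mouse 6, 16.5% and 16.1% in mouse 7, and 13.0% and 13.7% in mouse 8. The tumors of mouse 6 were the highest and those of mouse 8 the lowest, and the sides of a mouse differed by 0.738 ± 0.701 percentage points (SD, n = 4). The fragments of the same CD4+ tumor differed by 0.755 ± 0.591 percentage points (SD, n = 8 tumors).

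In the CD4+ dLNs, the TRBV1 share of reads was 13.1% ± 0.922 (SD, n = 4). Left and right dLNs held 13.5% and 12.7% in mouse 5, 14.4% and 13.4% in mouse 6, 13.0% and 14.3% in mouse 7, and 11.6% and 12.04% in mouse 8. The ranges of CD4+ tumors and CD4+ dLNs overlapped, although mouse 6 was high and mouse 8 low in both. In the CD8+ dLNs the share was 6.59% ± 0.537, from 5.79% on the right of mouse 8 to 7.31% on the left of mouse 6. In the CD8+ tumors it was 1.70% ± 0.541, and 4.34% without clones found in both the CD4+ and the CD8+ libraries of a mouse, whose origin was not tested. Leaving such clones out gave 16.1% in CD4+ tumors, 12.6% in CD4+ dLNs and 6.52% in CD8+ dLNs. The left and right CD8+ tumors held 1.35% and 1.13% in mouse 5, 1.66% and 1.85% in mouse 6, 2.42% and 2.47% in mouse 7, and 1.49% and 1.25% in mouse 8. The values of CD8+ tumors, CD8+ dLNs and CD4+ repertoires did not overlap.

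By distinct clones, the groups lay closer together. TRBV1 made up 8.46% ± 0.347 of clones in CD4+ tumors, 8.01% ± 0.152 in CD4+ dLNs, 5.37% ± 0.228 in CD8+ tumors and 5.74% ± 0.223 in CD8+ dLNs (SD, n = 4 each). The CD4+ values, from 7.67% to 9.15%, all lay above the CD8+ values, from 5.03% to 6.14%. Within a subset, tumors and dLNs overlapped. The share of reads divided by the share of clones was 1.91 ± 0.263 in CD4+ tumors, 1.64 ± 0.117 in CD4+ dLNs and 1.15 ± 0.0555 in CD8+ dLNs. In CD8+ tumors it was 0.315 ± 0.0945, so that TRBV1 had a smaller share of reads than of clones in all 8 CD8+ tumors. Without clones of both subsets, its 4.34% of reads there stood beside 5.33% of clones.

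**Figure D1:**
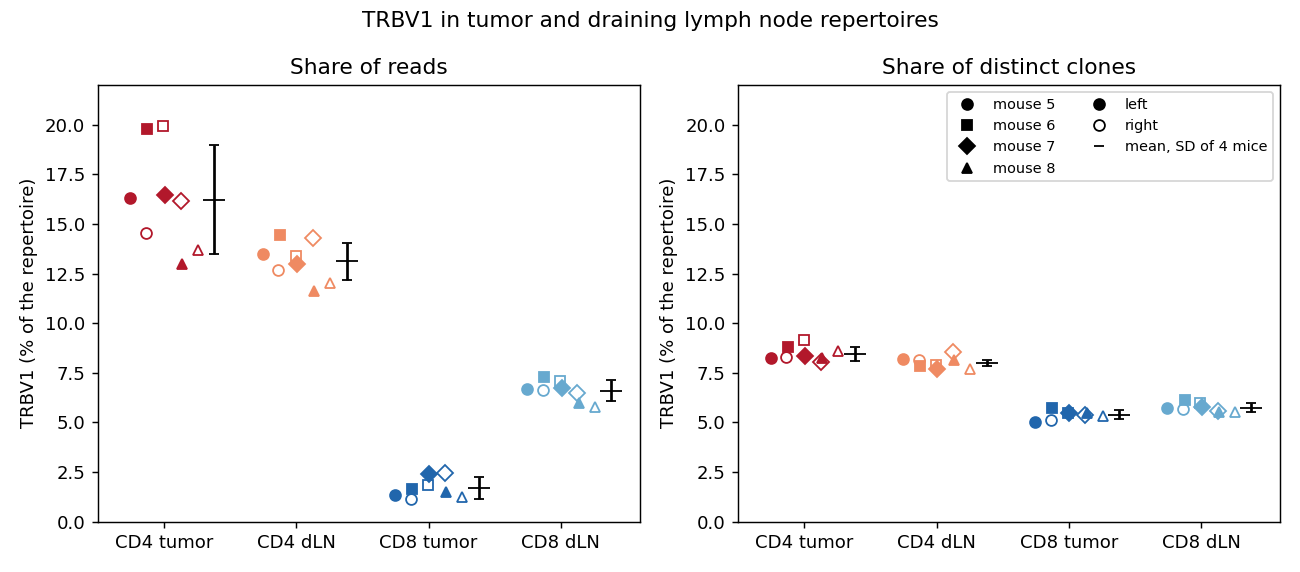
TRBV1 share of reads (left panel) and of distinct clones (right panel) in percent, for each repertoire of the 4 groups; symbols are mice, filled for the left and open for the right side, and bars give the mean and SD of 4 mice. By reads the groups run from 1.70% in CD8+ tumors to 16.2% in CD4+ tumors, and by clones from 5.37% to 8.46%.

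By mean share of reads, TRBV1 ranked first of all V segments in the CD4+ tumors, ahead of TRBV13-2 with 14.2%, and first in the CD4+ dLNs, ahead of TRBV13-2 with 11.9%. It ranked 7th in the CD8+ dLNs and 19th in the CD8+ tumors, where TRBV26 was first with 19.1%. Within single CD8+ tumors TRBV1 ranked between 15th and 18th, and TRBV26 ranged from 2.88% to 28.9% of reads. Among the 19 V segments that made up at least 1% of clones in a group, the ratio of read share to clone share of TRBV1 ranked first in CD4+ dLNs, 2nd in CD4+ tumors after TRBV14, 4th in CD8+ dLNs and last in CD8+ tumors. TRBV19 made up 5.70% ± 0.359 of the clones in CD4+ tumors and held 3.22% ± 0.346 of their reads, a ratio of 0.569 ± 0.0833. TRBV26 held 4.10% ± 0.312 of the clones in CD4+ tumors and 5.50% ± 1.42 of the reads.

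Over the 32 repertoires, the V segments whose share of reads followed that of TRBV1 most closely were TRBV13-2 with a Spearman's rho of 0.77, TRBV3 with 0.70 and TRBV31 with 0.61, of 21 segments compared. These values describe 4 groups of 4 mice that separate CD4+ from CD8+ T cells. Shares of 1 library are bound to a common sum.

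The CD4+ tumor share of TRBV1 was spread over clones of several sizes, with its largest part in 20 to 44 clones per tumor of 0.1 to 1% of reads. The largest TRBV1 clone held 8.23% ± 2.38 of the TRBV1 reads in CD4+ tumors and the 10 largest held 32.5% ± 2.68 (SD, n = 4), from 29.3% to 37.3% over the 8 tumors. From 17 to 34 clones, 27.8 ± 5.89 on average, were needed to reach 50% of the TRBV1 reads, of 560 to 1531 TRBV1 clones in a tumor. Without its 10 largest clones, TRBV1 still made up 11.6% ± 2.28 of the remaining reads.

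TRBV1 clones of 0.1 to 1% of a tumor's reads numbered 31.6 ± 9.44 and held 49.1% ± 7.90 of the TRBV1 reads in CD4+ tumors. The 171 ± 12.9 clones from 0.01 to 0.1% held 31.7% ± 4.24, and the 872 ± 353 clones under 0.01% held 14.1% ± 3.36. Clones above 1% were found only in mice 6 and 7, with 1 per tumor. In the CD4+ dLNs the weight lay 1 class lower. The 318 ± 11.9 TRBV1 clones from 0.01 to 0.1% held 56.8% ± 2.78 of TRBV1 reads there, clones of 0.1 to 1% held 17.4% ± 6.42 and none reached 1%. Clones of any V segment above 1% numbered 0.25 ± 0.50 per CD4+ dLN.

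In CD8+ T cells TRBV1 reads sat mostly in the smallest clones. In CD8+ tumors, the 2374 ± 1324 TRBV1 clones under 0.01% of reads held 73.3% ± 11.4 of TRBV1 reads, and none of the 17.1 ± 3.99 clones above 1% in a CD8+ tumor used TRBV1. Clones of 0.1 to 1% numbered 55.8 ± 15.9 per CD8+ tumor and TRBV1 clones among them 0.875 ± 1.03, found in mice 6 and 8 alone. In CD8+ dLNs, TRBV1 clones under 0.01% held 85.2% ± 3.71 of TRBV1 reads and none exceeded 0.1%.

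**Figure D2:**
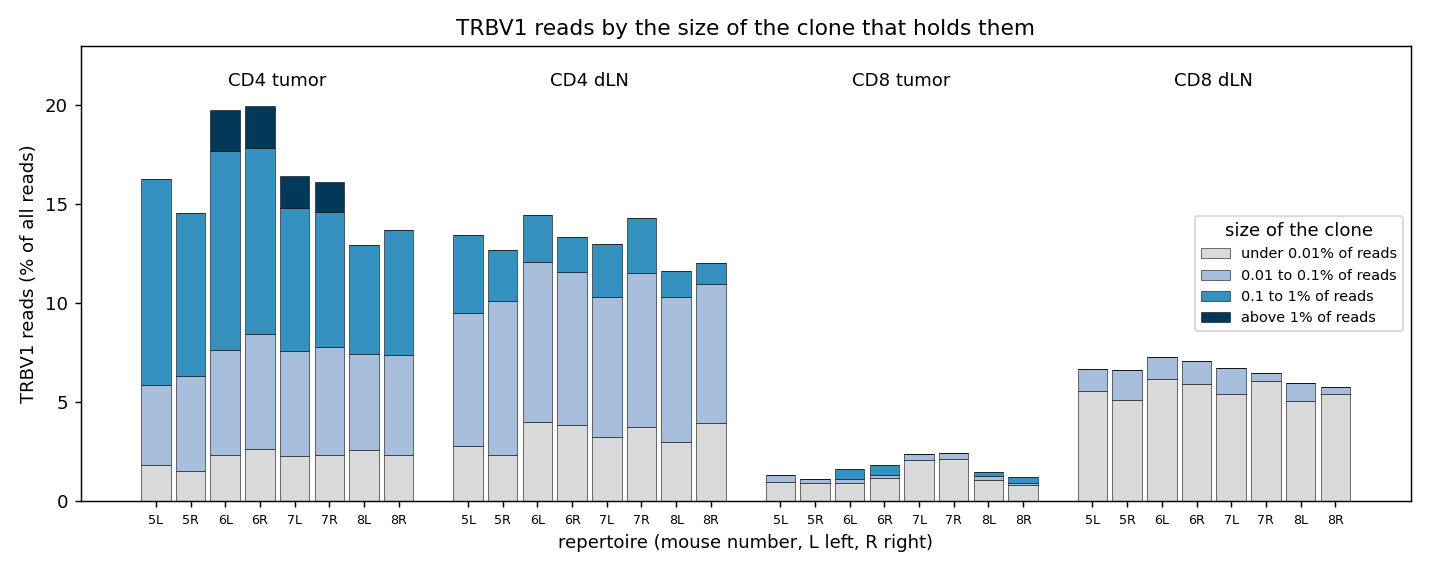
TRBV1 reads in percent of all reads for each of the 32 repertoires, stacked by the size of the clone that holds them. In CD4+ tumors clones of 0.1 to 1% hold the largest part, 7.99% ± 1.84 of all reads, while in CD8+ dLNs clones under 0.01% hold 5.60% ± 0.386.

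In CD4+ T cells, TRBV1 had a larger share among larger clones up to 1% of reads. In CD4+ tumors, TRBV1 made up 7.70% ± 0.322 of clones under 0.01%, 13.1% ± 1.49 of clones from 0.01 to 0.1% and 22.8% ± 7.97 of clones from 0.1 to 1%. The last class split by mouse, from 29.1% to 30.6% in mice 6 and 7 and from 13.5% to 17.9% in mice 5 and 8. Of the clones above 1%, of which a CD4+ tumor held 1 to 8, TRBV1 was the single clone in both tumors of mouse 6, 1 of 8 in both tumors of mouse 7 and 0 in mice 5 and 8. In CD4+ dLNs the shares were 6.82% ± 0.0585, 14.5% ± 1.31 and 22.3% ± 5.93. In CD8+ tumors the values ran 5.38% ± 0.230, 5.18% ± 1.82 and 1.65% ± 2.07, and TRBV1 made up 2.38 ± 1.49 of the 100 largest clones, against 24 ± 8.30 in CD4+ tumors.

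**Figure D3:**
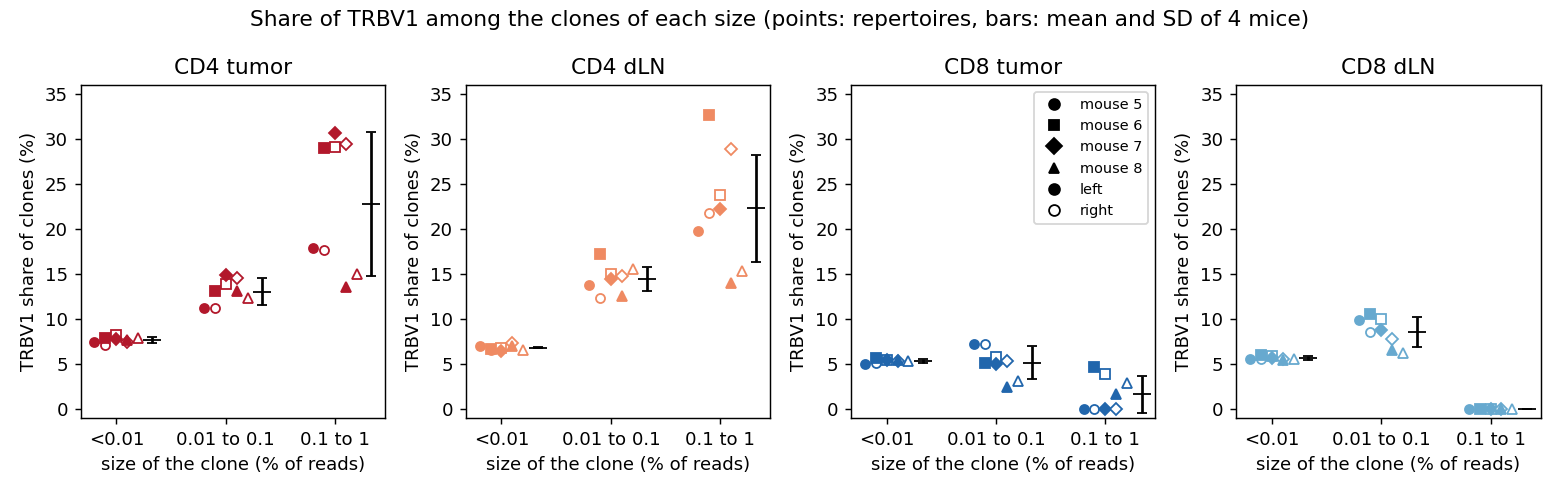
TRBV1 share of clones in percent for clones under 0.01%, from 0.01 to 0.1% and from 0.1 to 1% of reads in the 4 groups; points are repertoires (symbols for mice, filled left, open right) and bars give the mean and SD of 4 mice. The share goes from 7.70% to 22.8% in CD4+ tumors and from 5.38% to 1.65% in CD8+ tumors; the few clones above 1% are not plotted.

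The difference was not limited to the largest clones. The median TRBV1 clone in CD4+ tumors corresponded to 4.19 ± 0.675 cells, at 6 reads per cell, and the median clone with another V segment to 2.85 ± 0.497. In CD4+ dLNs these values were 2.42 ± 0.118 and 1.52 ± 0.105. In CD8+ tumors they were 1.44 ± 0.172 and 1.29 ± 0.198, so that the median TRBV1 clone was no smaller there either, while TRBV1 was nearly absent from the large clones. The 10 largest clones with other V segments held 44.9% ± 9.43 of the other reads in CD8+ tumors, and the 10 largest TRBV1 clones 27.4% ± 11.9 of the TRBV1 reads.

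TRBV1 was chosen from the reads of the CD4+ tumors, and clonality there is computed from the same reads, so comparisons with the CD4+ tumors are given without a test. It ranked first by reads in the CD4+ dLNs as well, and comparisons with these are also given without a test. Clonality, 1 minus the normalized Shannon entropy, is 0 when all clones are equally large and approaches 1 when 1 clone dominates. Within TRBV1 it was 0.256 ± 0.0194 in CD4+ tumors, from 0.2198 to 0.284 over 8 tumors, and 0.117 ± 0.0135 in CD4+ dLNs, from 0.0961 to 0.151. The tumor was higher in 4 of 4 mice, by 0.139 ± 0.0175 (SD, n = 4). In CD8+ T cells it was 0.176 ± 0.0788 in tumors and 0.0478 ± 0.00174 in dLNs, with the tumor higher in 4 of 4 mice by 0.128 ± 0.0774 (exact permutation test over 70 divisions of the mouse values, two-sided, p = 0.0286, adjusted p = 0.0361, n = 4). The CD8+ tumors of mice 6 and 8, from 0.189 to 0.297, lay above those of mice 5 and 7, from 0.0953 to 0.140. A higher mean in tumors was not particular to TRBV1. In CD8+ T cells, clonality in tumors and dLNs was 0.529 ± 0.214 and 0.112 ± 0.0776 for TRBV19, and 0.663 ± 0.166 and 0.0643 ± 0.00729 for TRBV26. In CD4+ T cells it was 0.264 ± 0.0816 and 0.103 ± 0.00624 for TRBV19, and 0.228 ± 0.0570 and 0.110 ± 0.0346 for TRBV26.

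CD4+ dLNs exceeded CD8+ dLNs in TRBV1 clonality by 0.0692 ± 0.0136 (SD, n = 4), in 4 of 4 mice, given without a test. CD4+ and CD8+ tumors overlapped, with a difference of 0.080 ± 0.0883 in favor of CD4+ in 3 of 4 mice. Without mouse 7 this difference was 0.0451. With the Gini coefficient in place of clonality, the difference of all 4 mice was 0.1997 and the groups did not overlap. A p of 0.0286 is the smallest that 4 against 4 mice can give, and the adjustment covers 24 tests, including those reported without p-values. Since the groups come from the same mice, each comparison was also made with the mouse as a replicate block, where no p can fall below 0.125; the clonality difference of 0.128 in CD8+ T cells then had p = 0.125 (exact sign changes), and none of the 24 comparisons can pass at 0.05 in that form.

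By mean, though not by median, TRBV1 clones had longer CDR3s than clones with other V segments in every group. The mean length was 14.17 ± 0.0484 residues for TRBV1 and 13.88 ± 0.0319 for the others in CD4+ tumors, each clone counted once. In CD4+ dLNs it was 13.99 ± 0.0272 and 13.77 ± 0.0245, in CD8+ tumors 14.43 ± 0.0183 and 14.03 ± 0.0122, and in CD8+ dLNs 14.30 ± 0.0489 and 13.90 ± 0.0242. TRBV1 was longer in 4 of 4 mice in each group, by 0.294 to 0.399 residues in 3 of them and by 0.222 ± 0.0160 in CD4+ dLNs (exact permutation tests, two-sided, p = 0.0286, adjusted p = 0.0361, n = 4 each). Weighted by reads, the difference in CD4+ tumors was 0.133 residues, given without a test since it rests on the reads that chose TRBV1. The median lengths differed by 0 in CD4+ tumors and both dLN groups and by 0.50 in CD8+ tumors (exact permutation p = 0.143).

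The parts of the junction differed in opposite ways. In CD4+ tumors the TRBV1 end contributed 15.0 ± 0.0664 bases and the ends of other V segments 13.6 ± 0.0377. Between V and J, TRBV1 clones had 9.06 ± 0.159 bases of D segment and added bases, and the others 9.52 ± 0.0617. The J segment contributed 18.5 ± 0.110 bases in TRBV1 clones and 18.6 ± 0.0415 in the others. In CD8+ T cells the J part was longer with TRBV1, with 18.796 ± 0.0433 against 18.499 ± 0.0124 bases in tumors and 18.74 ± 0.0462 against 18.45 ± 0.0147 in dLNs. In CD8+ tumors the V parts were 15.0 ± 0.0757 and 13.5 ± 0.0172 bases, and the bases between V and J 9.48 ± 0.105 and 10.1 ± 0.0540. Clones without any base between V and J were 1.62% ± 0.182 of TRBV1 clones and 1.11% ± 0.114 of the others in CD4+ tumors.

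Among TRBV1 clones, mean CDR3 length was larger in tumors than in dLNs and larger in CD8+ than in CD4+ T cells. The 8 CD4+ tumors ranged from 14.11 to 14.22 residues and the 8 CD4+ dLNs from 13.94 to 14.05, a difference of 0.180 ± 0.0527. The CD8+ tumors ranged from 14.37 to 14.46 and the CD8+ dLNs from 14.25 to 14.38, a difference of 0.128 ± 0.0485. CD4+ clones were shorter than CD8+ clones, with differences of −0.259 ± 0.0649 in tumors and −0.311 ± 0.0751 in dLNs. Each of these 4 differences had its sign in 4 of 4 mice (exact permutation tests, two-sided, p = 0.0286, adjusted p = 0.0361, n = 4 each). The tumor and dLN differences of CD4+ and CD8+ clones did not differ beyond their spread (0.0524, exact permutation p = 0.229). The CD8+ tumor and dLN difference did not pass when weighted by reads (0.149) or from fragment 1 (0.101; exact permutation p = 0.0857 for both), and none of the 4 differences passed by medians.

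The tumor and dLN difference in CD4+ TRBV1 clones turned direction when clones were weighted by reads, to −0.196 residues, a value without a test for the same reason. The most frequent clones printed above had 15, 12, 11 and 13 residues in mice 5, 6, 7 and 8, and their part in this turn was not tested. The other segments changed as well: their mean length was 13.88 in CD4+ tumors and 13.77 in CD4+ dLNs. The most frequent length of TRBV1 clones was 14 residues in CD4+ tumors (26.6% ± 1.05 of clones), CD4+ dLNs (28.96% ± 1.46) and CD8+ dLNs (29.3% ± 0.567), and 15 residues in CD8+ tumors (28.99% ± 0.696).

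Every one of the 12 functional J segments was joined to TRBV1 in all groups. Averaged over the 4 groups, the most frequent partners were TRBJ2-7, with 17.2% of TRBV1 clones, and TRBJ1-1, with 11.3%, and on that average they also differed most from the clones with other V segments. TRBJ2-7 made up 15.7% ± 0.920 of TRBV1 clones and 19.7% ± 0.385 of other clones in CD4+ tumors, and 18.7% ± 0.382 against 22.4% ± 0.333 in CD8+ tumors. It was lower with TRBV1 in 32 of 32 repertoires. TRBJ1-1 made up 12.1% ± 1.15 of TRBV1 clones and 9.87% ± 0.207 of other clones in CD4+ tumors, and was higher with TRBV1 in 30 of 32 repertoires. The order differed between groups. In CD8+ tumors, TRBJ2-1 with 14.3% ± 0.638 and TRBJ2-5 with 10.99% ± 0.363 of TRBV1 clones exceeded TRBJ1-1 with 9.80% ± 0.453, which lay 0.773 ± 0.526 percentage points above the other clones there, less than TRBJ1-4 with 1.74 ± 0.248. In CD4+ tumors, TRBJ2-1 differed from the other clones by −3.06 ± 0.385 percentage points and TRBJ1-1 by 2.18 ± 1.08. TRBJ2-1, TRBJ2-5 and TRBJ1-4 were named after their values were seen.

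TRBJ2-4, named after its values were seen, differed between the subsets. It took part in 11.3% ± 1.60 of TRBV1 clones and 9.49% ± 0.276 of other clones in CD4+ tumors, and in 11.9% ± 1.02 and 9.76% ± 0.229 in CD4+ dLNs. In CD8+ tumors it took part in 7.68% ± 0.476 of TRBV1 and 8.34% ± 0.164 of other clones, and in CD8+ dLNs in 7.29% ± 0.307 and 8.37% ± 0.112.

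The J segments lie in 2 clusters, each with its own D and constant segments, and the share of clones that used the second cluster, TRBJ2, was lower with TRBV1 than with other V segments. It was 60.5% ± 2.05 against 65.5% ± 0.466 in CD4+ tumors and 62.3% ± 1.32 against 66.7% ± 0.593 in CD4+ dLNs. In CD8+ T cells it was 66.3% ± 0.669 against 70.4% ± 0.443 in tumors and 63.7% ± 1.51 against 69.1% ± 0.472 in dLNs. The difference, from −5.47 to −4.09 percentage points over the groups, had the same sign in 4 of 4 mice of each group (exact permutation tests, two-sided, p = 0.0286, adjusted p = 0.0361, n = 4 each). Weighted by reads, it was −7.86 in CD4+ tumors, again given without a test. In CD4+ dLNs it was −4.41, also without a test. In CD8+ tumors it did not pass, with its direction turned, at 6.499 (exact permutation p = 0.286).

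Within TRBV1, the TRBJ2 share was lower in CD4+ than in CD8+ tumors, with a difference of −5.75 ± 1.59 percentage points in 4 of 4 mice (exact permutation test, p = 0.0286, adjusted p = 0.0361, n = 4). From right tumors alone the difference was −5.26 (exact permutation p = 0.0571), and weighted by reads, without a test, it was −4.78. The groups overlapped and did not pass for CD4+ tumors against dLNs (−1.80 ± 2.42, exact p = 0.143), CD8+ tumors against dLNs (2.62 ± 2.06, exact p = 0.0571) and CD4+ against CD8+ dLNs (−1.34 ± 2.24, exact p = 0.229). The CD8+ tumor and dLN difference passed under 4 alternatives, at 2.15 to 2.71, and turned to −3.51 when weighted by reads (exact permutation p = 0.80). Without mouse 5 the CD4+ tumor and dLN difference was −3.00, and the dLN difference between the subsets was −2.04 without mouse 7 and −0.282 without mouse 8.

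**Figure D4:**
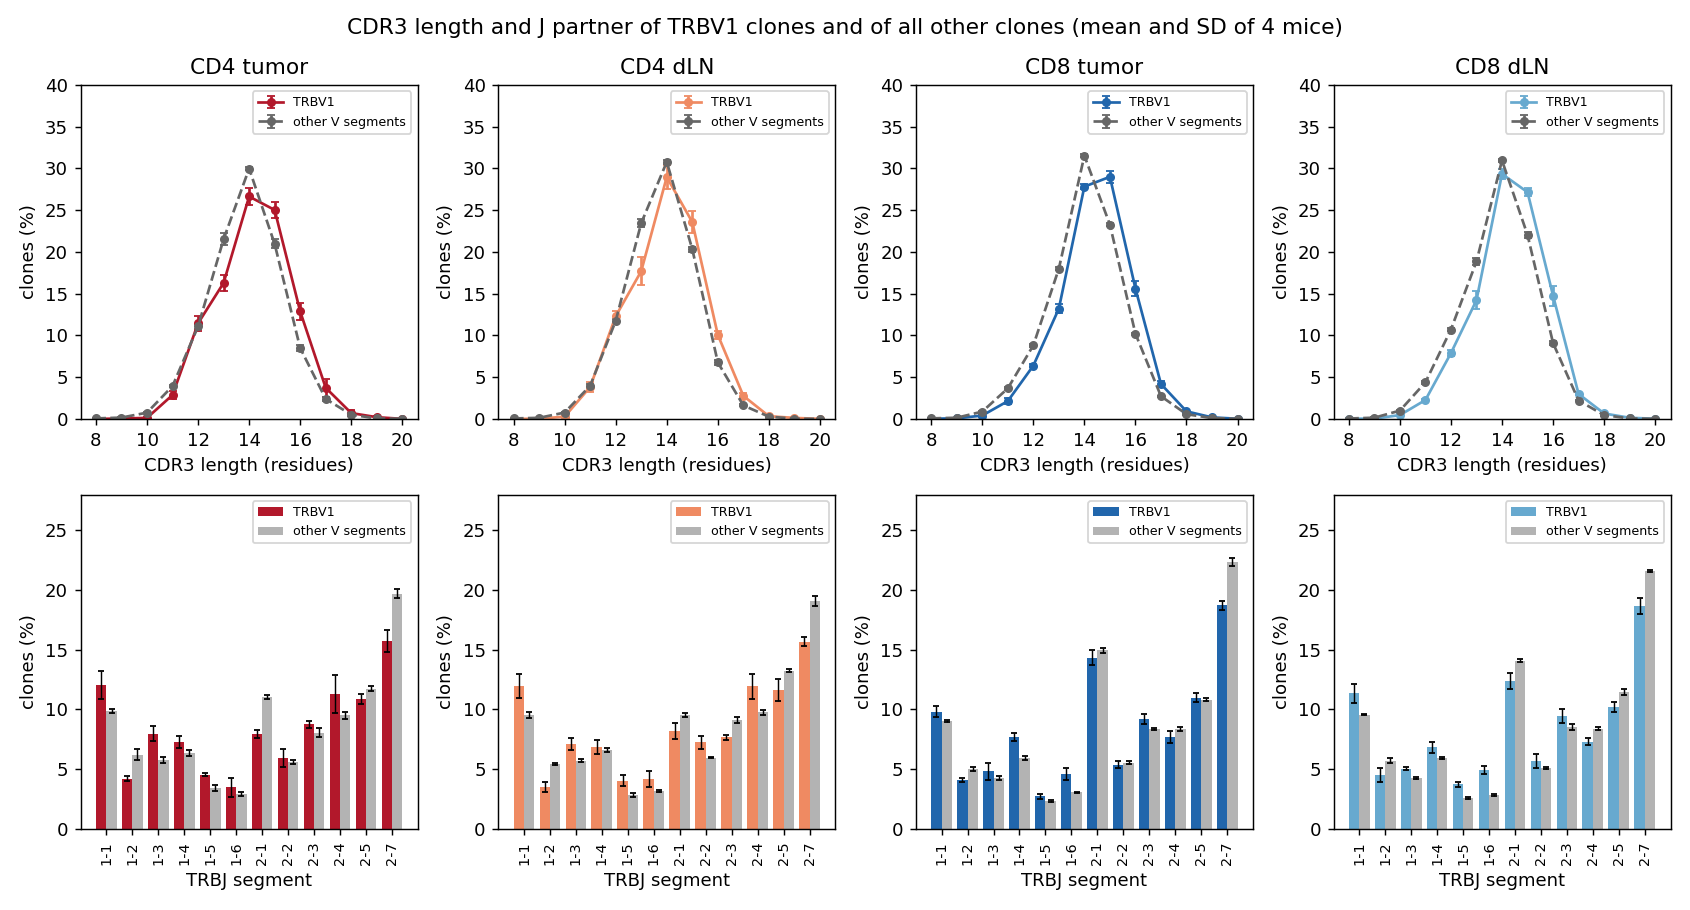
CDR3 length in residues (upper row) and J segment (lower row) as percent of clones for TRBV1 (colored) and all other V segments (gray) in the 4 groups, as mean and SD of 4 mice. The TRBV1 curve lies toward longer CDR3s in each group, and the bars for TRBJ2-7 are lower for TRBV1, with 15.7% against 19.7% in CD4+ tumors.

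Most TRBV1 reads of the CD4+ tumors, though fewer than 50% of the TRBV1 clones, belonged to clones found on both sides of a mouse. Clones found in both tumors numbered 275, 452, 635 and 460 in mice 5 to 8, which was 41.3% ± 2.49 of the TRBV1 clones in left tumors and 44.2% ± 4.11 of those in right tumors. All 146 TRBV1 clones that exceeded 0.1% of reads in the left or right CD4+ tumor were found on both sides. Clones of 0.1 to 1% with other V segments were likewise found in the opposite CD4+ tumor in 100% of cases. Of the 146 TRBV1 clones, 134 were within 2-fold, including 49 of 50 in mouse 6 and 25 of 33 in mouse 5. This 2-fold count has no value for other V segments beside it. In reads, the overlap, the geometric mean of the shares of both sides in shared clones, was 89.1%, 90.9%, 93.1% and 87.0% for TRBV1 in mice 5 to 8. For the other V segments it was 81.8%, 80.5%, 87.9% and 83.1%. TRBV1 was higher in 4 of 4 mice, by 6.70 ± 2.84 percentage points. For clones under 0.1% of reads the difference was 4.29, and for clones under 0.01% it turned to −2.62, with TRBV1 lower in 4 of 4 mice. These differences, and those for dLN sharing of CD4+ clones, rest on the reads from which TRBV1 was chosen and are given without a test.

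**Figure D5:**
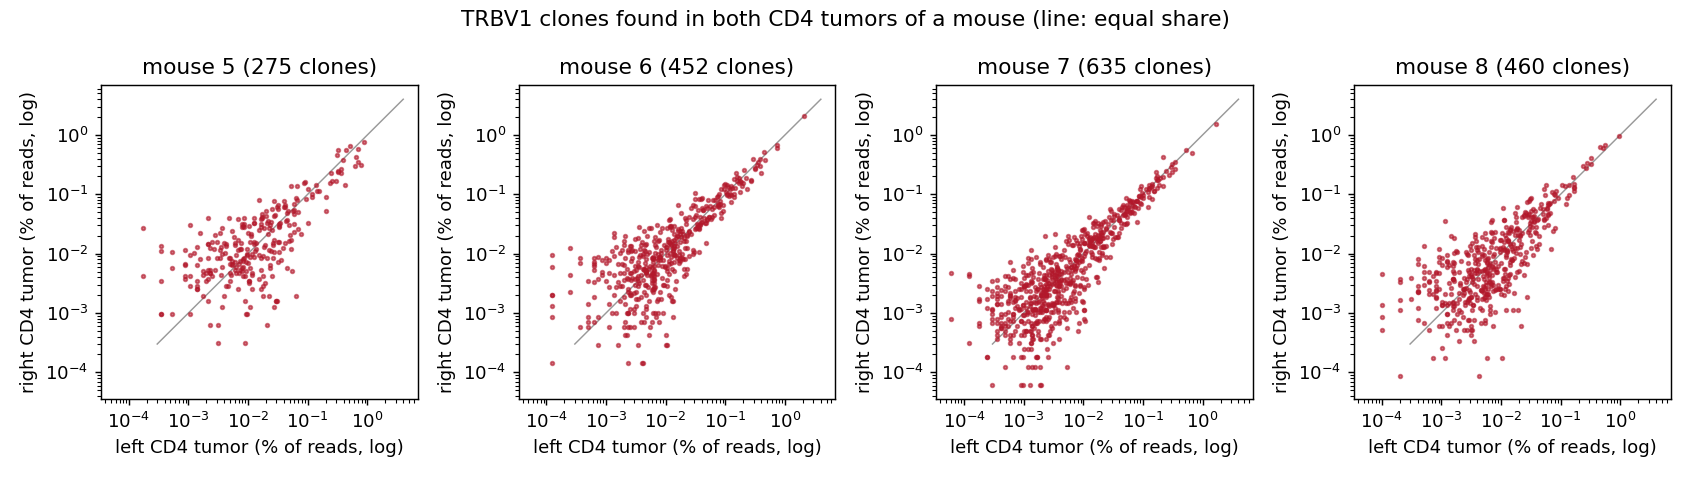
Share of reads in percent in the left (x axis, log scale) and right (y axis, log scale) CD4+ tumor for each TRBV1 clone found in both tumors of a mouse, 1 panel per mouse; the line marks equal shares. The points narrow toward the line as clones grow, and the 275 clones of mouse 5 scatter more than the others at the upper end.

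The most frequent CD4+ TRBV1 clone of mouse 6 made up 2.09% of the left tumor (95% Wilson interval on estimated cells 2.01 to 2.16) and 2.10% of the right (2.02 to 2.18). It was the most frequent of all CD4+ clones in both tumors of that mouse. In its left and right dLNs it was scarce, at 0.00324% and 0.0162%, and it appeared in 3 repertoires of other mice at up to 0.00648%. The clone of mouse 7 made up 1.65% (1.60 to 1.70) and 1.54% (1.496 to 1.59) of the tumors and 0.330% and 0.296% of the dLNs. In mouse 8 the clone held 0.957% (0.911 to 1.01) and 0.965% (0.922 to 1.01) of the tumors and 0.0763% and 0.0636% of the dLNs. In mouse 5 it held 0.885% (0.827 to 0.946) and 0.774% (0.703 to 0.853) of the tumors and 0.244% and 0.224% of the dLNs. All 4 clones were found on both sides in tumor and dLN. Since they were chosen by their tumor shares, the order of tumor and dLN shares is no result, and the left dLN value of mouse 6 lies below the highest value in another mouse.

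Of the TRBV1 reads in CD4+ tumors, 82.7% ± 4.499 belonged to clones also found in a CD4+ dLN of the mouse, against 68.3% ± 2.37 of the reads with other V segments. TRBV1 was higher in 4 of 4 mice, by 14.4 ± 2.58 percentage points. Larger clones are found again more often: in CD4+ tumors, 94.9% ± 4.64 of TRBV1 clones of 0.1 to 1% and 21.1% ± 1.08 of those under 0.01% were found in a dLN. For other V segments these values were 88.9% ± 3.795 and 20.3% ± 1.53. For clones under 0.1% of reads, 65.8% ± 5.498 of TRBV1 reads and 56.0% ± 2.97 of other reads were in clones found in a dLN, a difference of 9.85 percentage points with TRBV1 higher in 4 of 4 mice. For clones under 0.01% of reads the difference was 0.389 percentage points.

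CD8+ tumors showed the opposite order. The left and right overlap of TRBV1 reads was 32.004%, 54.2%, 33.7% and 45.7% in mice 5 to 8, and that of other V segments 85.1%, 86.3%, 73.9% and 87.4%. TRBV1 was lower in 4 of 4 mice, with a difference of −41.8 ± 8.67 percentage points (exact permutation test, two-sided, p = 0.0286, adjusted p = 0.0361, n = 4). Of TRBV1 reads in CD8+ tumors, 23.03% ± 15.8 were in clones found in a CD8+ dLN, against 72.6% ± 13.0 of the other reads (difference −49.6 ± 18.3, exact permutation p = 0.0286, adjusted p = 0.0361, n = 4). Mouse 6, with 46.6%, stood above the 13.1% to 16.5% of the other mice.

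Among clones of like size, TRBV1 and the other segments of CD8+ tumors lay close together. Clones under 0.01% of a tumor's reads were found in the opposite tumor in 13.4% ± 3.22 of cases for TRBV1 and 13.7% ± 2.13 for other V segments, and clones from 0.01 to 0.1% in 93.9% ± 4.67 and 94.7% ± 1.68. For reads in clones under 0.1%, an alternative chosen after seeing the data, the overlap was 33.1% ± 1.36 for TRBV1 and 35.2% ± 4.54 for the others, a difference of −2.06 percentage points (exact permutation p = 0.514). The corresponding difference for clones found in a dLN was −2.46 (exact permutation p = 0.371).

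Clones detected in both the CD4+ and the CD8+ libraries of a mouse held 63.0% ± 6.49 of the reads with other V segments in CD8+ tumors but 2.62% ± 1.03 of the TRBV1 reads there. In CD4+ tumors they held 22.02% ± 12.2 of TRBV1 reads and 21.4% ± 13.7 of the other reads. Without these clones TRBV1 made up 4.34% of reads in CD8+ tumors, the overlap difference was −14.9 (exact permutation p = 0.0857) and the difference for clones found in a dLN was −15.7 (exact permutation p = 0.114).

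The largest CD8+ TRBV1 clones were small. In mouse 6, a clone with TRBJ1-3 made up 0.319% of the left tumor (0.303 to 0.335) and 0.339% of the right (0.319 to 0.362), where it ranked 44th and 42nd, and 0.0553% and 0.0464% of the dLNs. In mouse 8, a clone with TRBJ2-5 made up 0.227% (0.214 to 0.241) of the left tumor but 0.00109% (0.000488 to 0.00242) of its counterpart. Of the 8 most frequent clones, 1 per mouse and subset, this was the single clone whose sides differed by more than 2-fold. These clones were taken by mean share of both tumors, which favors clones of like share on both sides. In 2 CD8+ tumors the largest TRBV1 clone was another one, with 0.0857% in the left tumor of mouse 7 and 0.160% in the right of mouse 8. In all, 5 CD8+ TRBV1 clones exceeded 0.1% of a tumor, and each was found on both sides of its mouse. The 2 of mouse 6 were within 2-fold, and the 3 of mouse 8 differed between the sides by a median of 35.9-fold. Clones of 0.1 to 1% with other V segments were found in the opposite CD8+ tumor in 99.5% ± 0.667 of cases. The CD8+ TRBV1 clones of mice 5 and 7 with the highest mean share, with TRBJ2-7 and TRBJ2-1, held between 0.0414% and 0.0840% of the tumors. Outside mouse 6 these clones had 0 reads in both dLNs, where 3 reads correspond to between 0.000561% and 0.000972%.

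Different mice carried some TRBV1 CDR3s of the same amino acid sequence. In the CD4+ tumors, 5841 TRBV1 clonotypes defined by J segment and amino acid sequence were found over the 4 mice, 7.14% of them in 2 or more mice and 21 in all 4 (0.360%). For other V segments 5.13% of 68024 were found in 2 or more mice and 104 in all 4 (0.153%). These shares were 8.19% and 6.71% in CD4+ dLNs, 9.40% and 9.20% in CD8+ tumors and 10.39% and 10.09% in CD8+ dLNs. The clonotype with the highest mean share among the 21 used TRBJ2-4 and had 12 residues. It is shown by its most frequent nucleotide version in each mouse, with capitals for bases matching neither germline end.
Mouse 5: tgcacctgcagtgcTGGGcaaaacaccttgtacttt
Mouse 6: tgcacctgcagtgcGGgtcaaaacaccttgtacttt
Mouse 7: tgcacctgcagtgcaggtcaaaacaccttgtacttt
Mouse 8: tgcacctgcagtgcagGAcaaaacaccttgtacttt
The 4 versions encode the same residues with at most 4 bases outside the germline ends, and that of mouse 7 has 0. In all, 11 nucleotide versions were found in the CD4+ tumors, between 4 and 6 per mouse.

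This clonotype made up 0.743% and 0.541% of the left and right CD4+ tumors in mouse 5, 1.02% and 0.878% in mouse 6, 0.237% and 0.197% in mouse 7, and 0.158% and 0.0984% in mouse 8. It was found in 8 of 8 CD4+ dLNs, at 0.125% to 0.523%, in 7 of 8 CD8+ dLNs at up to 0.0185% and in 3 of 8 CD8+ tumors at up to 0.00133%. It was chosen by its share in the CD4+ tumors, where mice 5 and 6 lay above mice 7 and 8.

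Nucleotide clones that also occurred in a library of another mouse held 19.3% ± 7.69 of the TRBV1 reads in CD4+ tumors, 18.02% ± 1.92 in CD4+ dLNs, 15.4% ± 3.24 in CD8+ tumors and 18.1% ± 1.81 in CD8+ dLNs. For other V segments the values were 20.3% ± 6.36, 14.5% ± 0.491, 39.99% ± 17.4 and 17.7% ± 1.82. Between single repertoires of different mice in the same group, the overlap in TRBV1 reads had a median of 3.63% in CD4+ tumors, 4.68% in CD4+ dLNs, 2.16% in CD8+ tumors and 3.52% in CD8+ dLNs, over 24 pairs each. The highest value, 9.04%, was that of the left CD4+ tumors of mice 7 and 8.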

How the data were processed

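TCRβ libraries, made by template switching and nested PCR without molecular identifiers, were trimmed with Cutadapt 3.2, filtered with PRINSEQ and aligned to IMGT mouse segments with MiXCR by the authors, who kept productive clones. The deposited tables hold read counts per clone and, as a fraction, the part of all reads that each clone takes. The deposited counts precede the down-sampling described in the methods. Each library was therefore drawn without replacement (seed 1) to 6 reads per sorted cell, with the cell numbers listed by the study. A clone was a V segment, a J segment and a CDR3 nucleotide sequence. Fragments were summed, and both sides of a mouse were averaged.

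Values of 4 mice were compared by exact permutation tests, two-sided, over 70 divisions, with Benjamini-Hochberg adjustment over 24 tests. Those on CD4+ clone sharing and on clonality of CD4+ clones are reported without p-values, as are read-weighted values with CD4+ repertoires. These values rest on the CD4+ tumor reads that chose TRBV1 or on CD4+ dLN reads, where it ranked first as well. The adjustment still counts the tests left without p-values. The labels assign both sides and subsets of a number to the same mouse, and sides deviated together from the group means (TRBV1 share of reads, r = 0.874, 16 pairs). With the mouse as a replicate block (16 sign changes) the CD8+ clonality difference of 0.128 had an exact p of 0.125. Scripts were tested on simulated data. Germline ends and coordinates came from the GENCODE annotation of GRCm38.

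The V segment, comparisons and lists were chosen with earlier results of these data known. Named clones were the most frequent TRBV1 clone of each mouse and subset, by mean share of both tumors. Any other above 1% of a CD4+ tumor (there was none) and the leading clonotype of all 4 mice were named too. Named J segments were the 2 most frequent and the 2 differing most from other clones, and named V segments the 3 most alike in usage, with TRBV19 and TRBV26 for comparison and leading segments beside a rank. Other J segments were chosen once their values were known. Alternatives covered the draw, read minimums of 2 and 6, clone definition, clones shared between subsets or mice, sides, fragments, weighting, median length, the Gini coefficient and leaving out each mouse. Limits on clone size were added after seeing the data. Python 3.11.15 was used with pandas 2.3.3, numpy 2.4.6, scipy 1.17.1 and matplotlib 3.10.9.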

Additional observations from a re-analysis of the deposited data

How the results depend on the processing

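Of the 508 values recomputed, 450 kept their direction and side of the threshold, or moved by less than the spread between mice. These included all 128 values without 1 mouse, which carry no test because 3 against 3 mice cannot fall below 0.10 and which moved by less than that spread. When mice entered as a replicate block, the 24 differences are the same by construction and no exact p can fall below 0.125. The tested differences that pass over 70 divisions therefore did not pass with the block, and this says nothing about their stability. For length they were 0.180 and 0.128 for CD4+ and CD8+ tumors against dLNs, −0.259 and −0.311 for CD4+ against CD8+ tumors and dLNs, and for TRBV1 against others 0.294 and 0.397 in CD4+ and CD8+ tumors and 0.222 and 0.399 in CD4+ and CD8+ dLNs. For TRBJ2 they were −5.75 for CD4+ against CD8+ tumors, and for TRBV1 against others −5.01 and −4.09 in the tumors and −4.35 and −5.47 in the dLNs. For clonality it was 0.128 for CD8+ tumors against dLNs, and for clone sharing they were −41.8 in CD8+ overlap and −49.6 in CD8+ dLN sharing. Given without a test are the clonality differences of 0.139 for CD4+ tumors against dLNs and 0.0692 between the dLNs, and 14.4 in CD4+ dLN sharing. Shares of clones with at least 6 reads were 9.12% in CD4+ tumors, 5.61% in CD8+ tumors, 9.29% in CD4+ dLNs and 6.24% in CD8+ dLNs. The CD4+ dLN share was 7.84% with reads as deposited and 8.23% with at least 2 reads. Without clones found in both subsets, TRBV1 made up 4.34% of reads in CD8+ tumors, its CD4+ overlap difference, given without a test in the results, was 7.96, and its CD8+ differences in overlap and dLN sharing no longer passed at −14.9 and −15.7. Weighted by reads, length differences were −0.196 for CD4+ tumors against dLNs, 0.149 for CD8+ tumors against dLNs and 0.133 for TRBV1 against others in CD4+ tumors. TRBJ2 differences weighted by reads were −3.51 for CD8+ tumors against dLNs and −4.78 for CD4+ against CD8+ tumors, and for TRBV1 against others −7.86 in CD4+ tumors, 6.499 in CD8+ tumors and −4.41 in CD4+ dLNs. The weighted values with CD4+ tumors or CD4+ dLNs are given without a test, and the others did not pass. Median lengths move in coarse steps, and their differences did not pass, at 0 for CD4+ tumors against dLNs, CD4+ against CD8+ dLNs and TRBV1 against others in CD4+ tumors and both dLN groups, 0.50 for CD8+ tumors against dLNs and TRBV1 against others in CD8+ tumors, and −0.50 for CD4+ against CD8+ tumors. From fragment 1, the CD8+ tumor and dLN length difference was 0.101. The TRBJ2 difference of CD8+ tumors and dLNs passed with reads as deposited (2.71), another seed (2.63), the filter on clones more frequent in another mouse (2.64) and left samples (2.15), and that of CD4+ and CD8+ tumors did not pass from right samples (−5.26). The Gini difference of CD4+ and CD8+ tumors, given without a test, was 0.1997. For clones under 0.1% of reads, the CD8+ differences were −2.06 in overlap and −2.46 in dLN sharing and did not pass, and the CD4+ ones were 4.29 and 9.85. Under 0.01%, the CD8+ differences were −0.654 and −0.483 and did not pass, and the CD4+ ones, untested like the other CD4+ sharing values, were −2.62 and 0.389. The cause was not tested, except that the limits on size leave out the largest clones by construction.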

Other observations

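No D segment was assigned by the authors' alignment to 29.3% ± 1.42 of the TRBV1 clones and 24.5% ± 0.341 of the clones with other V segments in CD4+ tumors (SD, n = 4 mice). In CD8+ tumors these shares were 24.8% ± 0.525 and 20.4% ± 0.210. The values lay higher with TRBV1 in the dLNs as well, with 29.3% ± 2.08 against 25.8% ± 0.323 in CD4+ and 26.3% ± 1.02 against 21.99% ± 0.0519 in CD8+ T cells. None of these was tested.

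Clones seen with a single drawn read made up 2.96% ± 0.392 of TRBV1 clones and 4.56% ± 0.696 of other clones in CD4+ tumors. In CD4+ dLNs they made up 5.07% ± 0.362 and 7.76% ± 0.297.

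Of the TRBV1 nucleotide clones in CD4+ tumors, 14.2% ± 1.14 also occurred in a library of another mouse, against 12.5% ± 1.17 of other clones (by reads, given with the results, the order in CD4+ tumors is the opposite). In CD8+ dLNs these shares were 16.3% ± 1.06 and 14.9% ± 1.10.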
